A study of Arabidopsis thaliana with 9 samples.

Results

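WRKY6 (AT1G62300) and WRKY53 (AT4G23810) are transcription factors of Arabidopsis thaliana, and each was read by 1 probe set assigned to that gene alone, 264746_at for WRKY6 and 254231_at for WRKY53. They were chosen by their symbols, with earlier results of these data known. They are 2 of 13287 genes that had a probe set of their own among 22746 probe sets in all. Signals came from Affymetrix ATH1 arrays hybridised with total RNA of whole plants at growth stage 1.04, 17 days old and kept at 21 C in a cycle of 16 h light and 8 h dark, with 25 seeds sown per plate. The control line C2S1 is titled wild type, although a further label lists it as a knock out mutation, and lines 348 and 409 are labelled as T-DNA knock out mutants with no disrupted gene named. There were 9 arrays, 3 per line. The series title speaks of epigenetic mutants, and each mutant is represented by a single line. The labels leave it unsaid whether replicate arrays hold independently grown plants. Every p-value therefore reflects just the spread among these samples, which may be technical.

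WRKY proteins bind a short DNA element, the W-box, that lies in many promoters of stress and senescence genes, often including those of other WRKY genes. WRKY53 acts early in leaf senescence, the programmed breakdown of ageing leaves, and chromatin marks at its locus are known to change with leaf age. WRKY6 is induced in ageing leaves and during defence, restrains its own promoter and represses the phosphate exporter gene PHO1. Both genes respond readily to stress, so their transcripts can differ between plants of one genotype.

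The arrays had been scaled by the authors to the same 2% trimmed mean of 100 signal units, and within lines the correlation between arrays was 0.963 to 0.985 over the 14199 tested probe sets (a value across probe sets, which are no independent replicates). Precision is limited by how few arrays there are. The whole plant label was checked against marker genes. All 4 green tissue markers with a probe set of their own were bright, from 2169 to 6350 units over the genes RCA, LHCB4.1, LHCB4.2 and PSAE-1. The root marker PYK10 had 2340 to 3641 units, and none of the 5 floral markers had a probe set of its own in the gene table used here.

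WRKY6 was higher on the mutant arrays than on the control arrays, most of all in line 348, but its difference from the control did not pass the test across all probe sets. Control arrays read 23.6, 28.6 and 30.7 units for WRKY6. Arrays of line 348 read 49.0, 51.7 and 44.8, and those of line 409 read 31.0, 36.5 and 41.8. The lines thus followed each other without overlap in the order control, line 409, line 348. The gap between the highest control array and the lowest array of line 409 was only 0.391 units, and that between lines 409 and 348 was 3.02. On all 9 arrays WRKY6 lay above the 40th percentile of the array, which was 20.6 to 23.9 units and served as the limit for dim probe sets.

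**Figure D1:**
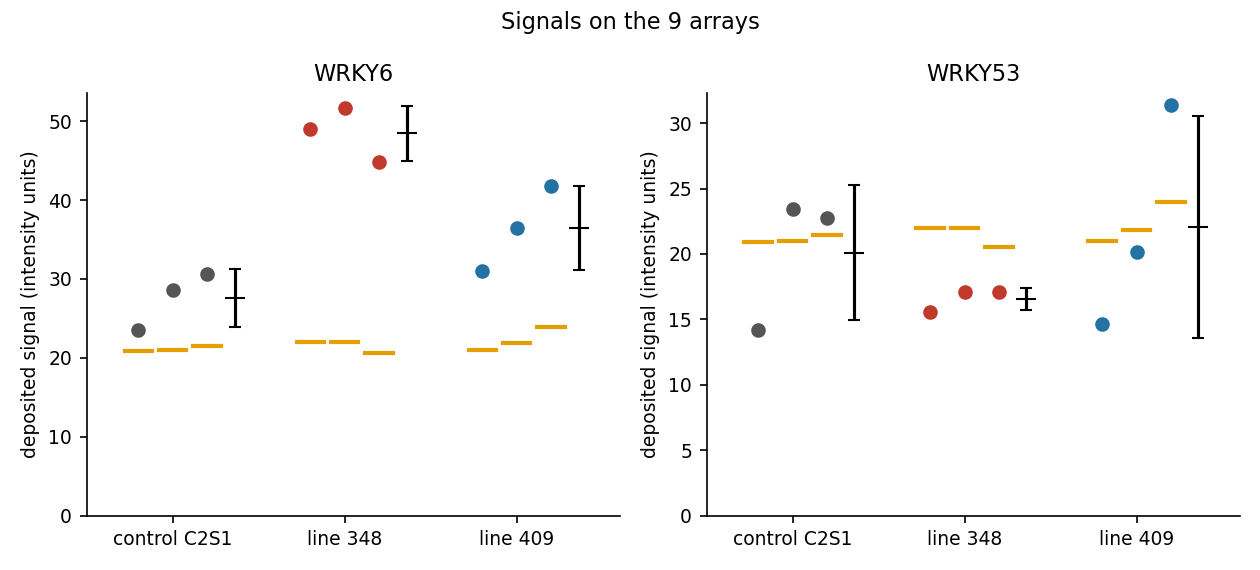
Deposited signals (intensity units, linear axis from 0) of WRKY6 and WRKY53 on each array, with points for arrays, black marks for the mean ± SD of the 3 arrays of a line, and orange ticks for the 40th percentile of that array. WRKY6 stands at 44.8 to 51.7 in line 348 against 23.6 to 30.7 in the control. The WRKY53 points overlap between the lines and lie near or below the ticks, except line 409 replicate 3, at 31.4 against 23.9.

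The mean WRKY6 signal was 27.6 ± 3.65 in the control, 36.4 ± 5.35 in line 409 and 48.5 ± 3.47 in line 348 (SD, n = 3 arrays each). Line 348 against the control had a log2 change of 0.72 with SE 0.177, a 1.64-fold difference on the scale of log2(signal + 4.98), with a 95% interval of 1.27 to 2.14. On the plain scale the ratio of the means was 1.76. The limma p was 0.00105 before adjustment and 0.414 after Benjamini-Hochberg adjustment over the 14199 probe sets, and the exact permutation p was 0.1, two-sided, the smallest that 3 against 3 arrays can give. An adjusted p under 0.05 was reached by 0.0211% of the tested probe sets, and WRKY6 was not among them.

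Set among all tested probe sets, the WRKY6 value in line 348 lay in the upper tail. The pair was chosen with earlier results of these data known, so that place is a description and no separate support. A log2 change at least as high was found for 69 probe sets, 0.486% of those tested, and 35 had a smaller p. Among the 1000 tested probe sets nearest to WRKY6 in mean signal, 0.8% had a change at least as high. Its spread between replicates was low for its brightness, with a residual SD of 0.155 on the log2 scale against a median of 0.247 in those neighbours. Arrays of line 348 lay above all control arrays without overlap for 6.06% of the tested probe sets, so that separation was not rare.

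Line 409 differed less from the control in WRKY6. The log2 change was 0.34 with SE 0.177, a 1.27-fold difference with a 95% interval of 0.977 to 1.65, so the interval includes no change. The limma adjusted p was 0.461 and the exact permutation p was 0.1. All 3 arrays of line 409 lay above all control arrays, as they did for 7.79% of the tested probe sets. In this comparison 0.0423% of the tested probe sets were called.

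The direct comparison of the mutant lines is also the test of whether their WRKY6 differences from the control are unequal. On all 3 arrays of line 409 WRKY6 lay below every array of line 348, a separation found in that direction for 5.67% of the tested probe sets, with a log2 change of -0.37, SE 0.177 and limma adjusted p = 0.674, where 0.0141% of the tested probe sets were called. Its 95% interval ran from -0.75 to 0.003, and the exact permutation p was 0.1. Lines without overlap in the rising order control, line 409, line 348 were found for 9 of the 14199 probe sets, 0.0634%, WRKY6 included, and in the falling order for 16, 0.113%. That order was taken from the WRKY6 values themselves and the other orders were not counted, so these shares are a description and no test. No pair of neighbouring lines in the WRKY6 order passed the test over all probe sets.

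WRKY53 gave a dim and uneven signal with no ordering of the lines. It had 14.2, 23.4 and 22.7 units in the control. On the arrays of line 348 it had 15.6, 17.1 and 17.1, and on those of line 409 it had 14.7, 20.2 and 31.4. The groups overlapped in every comparison, and both the lowest and the highest WRKY53 values were found outside line 348. Only 3 of the 9 arrays, control replicates 2 and 3 and line 409 replicate 3, lay above the 40th percentile, which was just enough for WRKY53 to be tested. The array with the highest WRKY53 signal, line 409 replicate 3, also had the highest 40th percentile of the 9, 23.9 against 20.6 to 22.0 on the others. The part of that array's brighter dim end in the WRKY53 value was not tested.

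The mean WRKY53 signal was 20.1 ± 5.16 in the control, 16.6 ± 0.864 in line 348 and 22.1 ± 8.51 in line 409 (SD, n = 3). Line 348 against the control had a log2 change of -0.20, SE 0.277, with a 95% interval of -0.79 to 0.39 and limma adjusted p = 0.961. Line 409 against the control had 0.08, with an interval of -0.51 to 0.68 and limma adjusted p = 0.934. Line 409 against line 348 had 0.28, with an interval of -0.31 to 0.87 and limma adjusted p = 0.842. The exact permutation p was 0.4, 0.9 and 0.4 in these comparisons. Each interval includes no change and leaves differences up to its bounds possible. The sign for line 409 was not stable. Without control replicate 1 the log2 change was -0.10, and without line 409 replicate 3, where WRKY53 no longer passed the filter, the difference of the mean log2 values was -0.15, with no test.

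The spread of WRKY53 was uneven over the lines, but each value rests on 3 arrays and the differences in spread were not tested. The coefficient of variation of its signal was 25.6% in the control, 5.22% in line 348 and 38.6% in line 409, whereas that of WRKY6 was 13.2%, 7.17% and 14.7%. The residual SD of WRKY53 was 0.318 on the log2 scale, larger than that of 86.7% of all tested probe sets. It was close to the median of 0.318 for the 1000 probe sets nearest in mean signal, of which 50.2% had a smaller one, so it was ordinary for a probe set this dim.

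**Figure D2:**
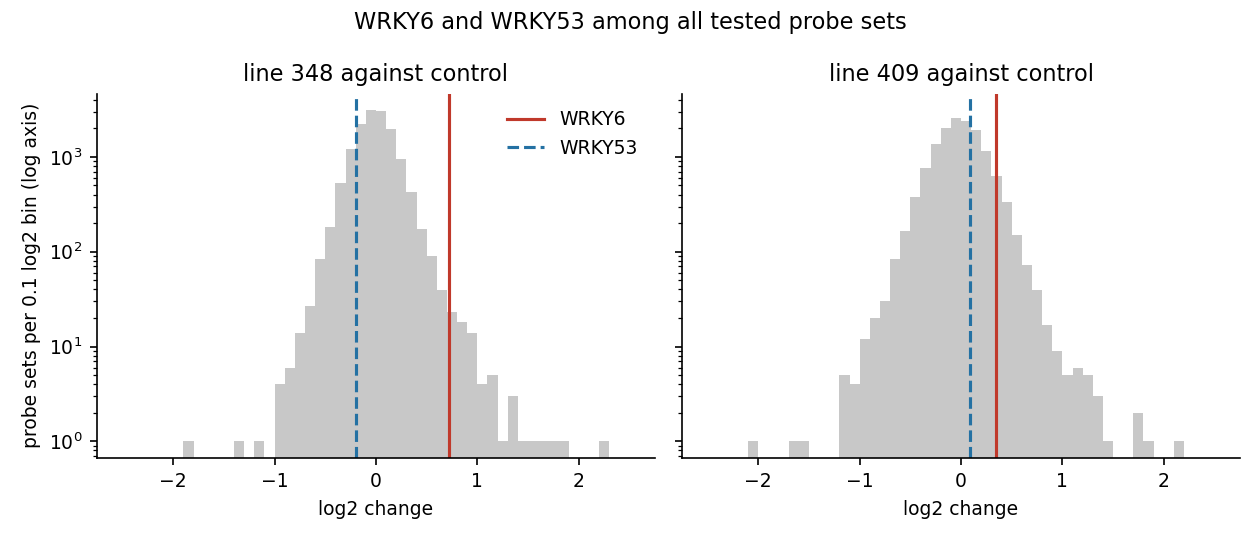
Number of tested probe sets per 0.1 bin of log2 change (log axis) in line 348 and line 409 against the control, with WRKY6 as a solid line and WRKY53 as a dashed line. WRKY6, at 0.72, stands in the upper tail in line 348 and at 0.34 nearer the bulk in line 409, and WRKY53 lies inside the bulk in both.

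WRKY6 minus WRKY53 on the log2 scale was also taken within each array. WRKY53 lay below the 40th percentile on all 3 arrays of line 348 and on 6 of the 9 arrays, so these differences rest on a dim signal and do not show that the pair moved unequally. This difference was 0.24 to 0.58 on the control arrays, 1.17 to 1.39 in line 348 and 0.36 to 0.87 in line 409. The mean shift of line 348 against the control was 0.92 and that of line 409 against line 348 was -0.66, each with exact permutation p = 0.1, the smallest possible. That of line 409 against the control was 0.26, with exact permutation p = 0.3.

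Across the 9 arrays no relation of the log2 signals of WRKY6 and WRKY53 was found. Pearson r was 0.06 with exact permutation p = 0.887, and Spearman rho was 0.03 with exact permutation p = 0.948. The permutations moved arrays across lines, so line differences enter this test, and a large p from 9 arrays leaves a relation possible. Without the 2 arrays farthest from the WRKY6 median, control replicate 1 and line 348 replicate 2, r was -0.16 with exact permutation p = 0.738 and rho was -0.36 with exact permutation p = 0.444. This was the 1 relation between a chosen pair that was tested, so no adjustment applied. The lines have 3 arrays each, too few for a correlation within a line.

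The picture differed once the mean of each line was taken away. Control replicate 1 was the lowest of its line in both genes and line 409 replicate 1 was the lowest of its line in both. Line 409 replicate 3 was the highest of its line in both. WRKY6 rose from replicate 1 to replicate 3 in the control (23.6, 28.6 and 30.7 units) and in line 409 (31.0, 36.5 and 41.8). This is the order of the replicate numbers in the titles, and the labels name no batch. Whether the likeness of the pair within lines follows the replicate number was not tested. In line 348, where WRKY53 hardly varied, the lowest array was replicate 3 for WRKY6 and replicate 1 for WRKY53. The deviations from the line means of the pair correlated at r = 0.90 over the 9 arrays, which share the subtraction of 3 line means and the scaling of each array. Of all tested probe sets, 117, or 0.824%, followed the WRKY6 deviations at least as closely. The deviations also correlated at r = 0.81 after quantile normalization, where 2.51% of the probe sets followed WRKY6 as closely, and at 0.86 after median centring. With 1 array left out in turn, r was 0.82 to 0.97. The share of probe sets that followed WRKY6 as closely was then 0.254% without line 348 replicate 3 to 4.17% without control replicate 1. The correlation of deviations is given as a description with no test, and its alternative settings were added after the signals had been seen.

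**Figure D3:**
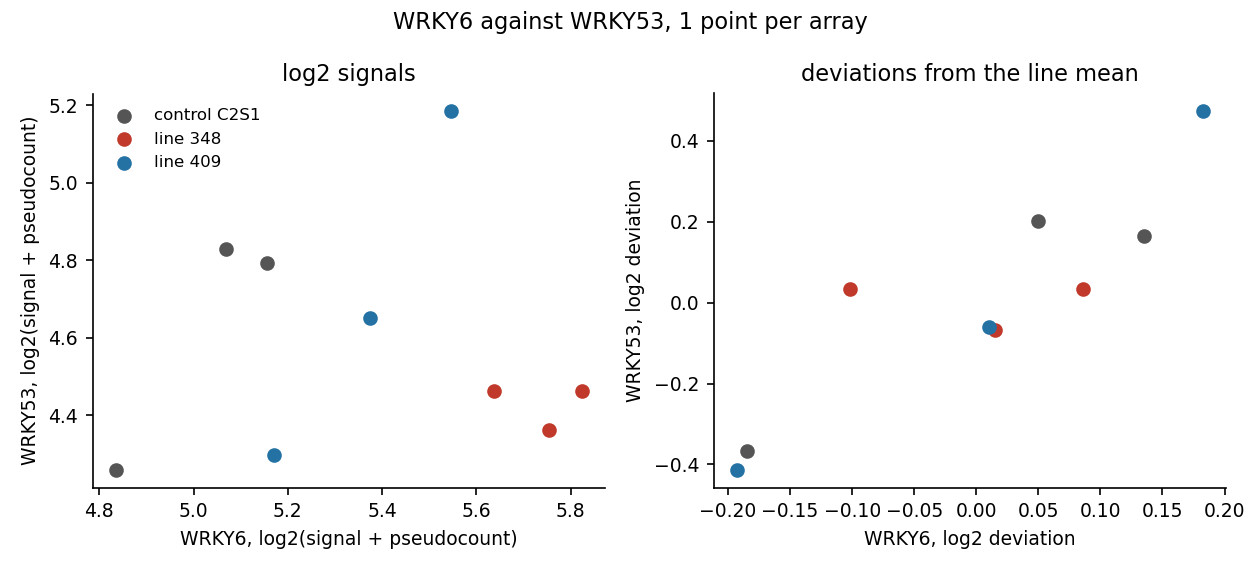
WRKY53 against WRKY6 with 1 point per array, as log2 signals on the left and as deviations from the line mean on the right (log2 units on all axes), coloured by line. The points on the left show no common trend, r = 0.06, while those on the right lie along a rising band, r = 0.90.

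Genes whose signals followed WRKY6 over the 9 arrays were few. Of 14198 other probe sets, 10 (0.0704%) had r of at least 0.9 and 13 (0.0916%) had r of -0.9 or lower. These are the extremes of many correlations over 9 arrays, so the genes named describe these arrays only. The closest was AT5G09480, with r = 0.98 and rho = 0.97. Control arrays read 25.3, 31.9 and 35.5 units, those of line 348 read 62.0, 56.9 and 51.6, and those of line 409 read 38.8, 46.3 and 52.4. Like WRKY6 it was lowest in the control and did not pass in line 348, with a log2 change of 0.79 and limma adjusted p = 0.263.

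The next genes in likeness to WRKY6 were AT5G09630 with r = 0.94, AT5G44730 with 0.93, AT5G11560 with 0.91, AT1G05720 with 0.90 and ATMDAR2 with 0.90. ATMDAR2 encodes a monodehydroascorbate reductase, an enzyme that regenerates the antioxidant ascorbate. It read 276, 322.5 and 334 units on control arrays against 412, 385 and 354 on those of line 348. Line 348 thus lay above the control without overlap, as for 6.06% of the tested probe sets, while line 409 gave 299, 311 and 360. For the deviations from the line means, r with WRKY6 was 0.98 for AT5G44730, 0.94 for AT5G09480 and 0.90 for ATMDAR2. It was 0.87 for AT1G05720, 0.86 for AT5G11560 and 0.69 for AT5G09630. None of these 6 genes had an adjusted p under 0.05 in either line, and since likeness to WRKY6 picked them, their line differences are no separate finding.

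Genes that ran opposite to WRKY6 were AT1G73710 with r = -0.94, GSTU16 with -0.93, AT2G46250 with -0.92 and NAC014 with -0.92. GSTU16 is a tau class glutathione S-transferase, an enzyme family that conjugates glutathione to toxic compounds. It had 115, 111 and 112 units in the control, 78.2, 64.7 and 78.2 in line 348 and 94.99, 93.1 and 71.3 in line 409. Both mutant lines lay below the control without overlap, as did 7.13% of the tested probe sets in line 348 and 9.87% in line 409, with log2 changes of -0.58 and -0.37 and limma adjusted p = 0.408 and 0.316. These genes were picked for running opposite to WRKY6, so their line differences are no separate finding either. NAC014, a transcription factor of the NAC family, had 66.8 to 71.6 units in line 348 against 84.2 to 99.6 in the control, with limma adjusted p = 0.819.

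Genes that followed WRKY53 were likewise few. Of the other probe sets, 11 (0.0775%) had r of at least 0.9 with it and 12 (0.0845%) had r of -0.9 or lower. These too are the extremes of many correlations and a description only. The closest with a gene were AT3G19100 with r = 0.93, AT5G25770 with 0.93, AT3G03000 with 0.92, QQT2 and AT1G72200 with 0.91 each, and AT3G24740 with 0.89. QQT2, named after quatre-quart, had 96.1, 111 and 100.5 units in the control, 92.2, 95.5 and 97.0 in line 348 and 88.0, 105 and 115 in line 409. For each of these 6 genes the highest array of line 409 was replicate 3, as for WRKY53, and the lines overlapped in every comparison, which their choice by likeness to WRKY53 largely fixed. Opposite to WRKY53 ran AT5G48640 with r = -0.95, AT1G49930 with -0.93, AT1G03280 with -0.92 and AT1G75810 with -0.91.

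Within lines, with the line means removed, the genes nearest to WRKY6 were AT1G06640 with r = 0.99, PDF2.5 with 0.98, AT5G44730 with 0.98 and AT1G62770 with 0.98. Each of these genes, like WRKY6, rose from replicate 1 to replicate 3 in the control and in line 409, which their choice by likeness largely fixed. PDF2.5, which belongs to the plant defensins, read 13.4, 26.0 and 28.2 units on control arrays. It read 34.8, 37.4 and 27.3 on arrays of line 348 and 22.2, 40.2 and 52.5 on those of line 409. The genes nearest to WRKY53 were AT1G11330 and AT2G33845 with r = 0.99 each, AT5G47250 with 0.98 and AT2G35120 with 0.97. These are the highest of many correlations over 9 arrays that leave 6 degrees of freedom, so they are a description of these arrays only.

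**Figure D4:**
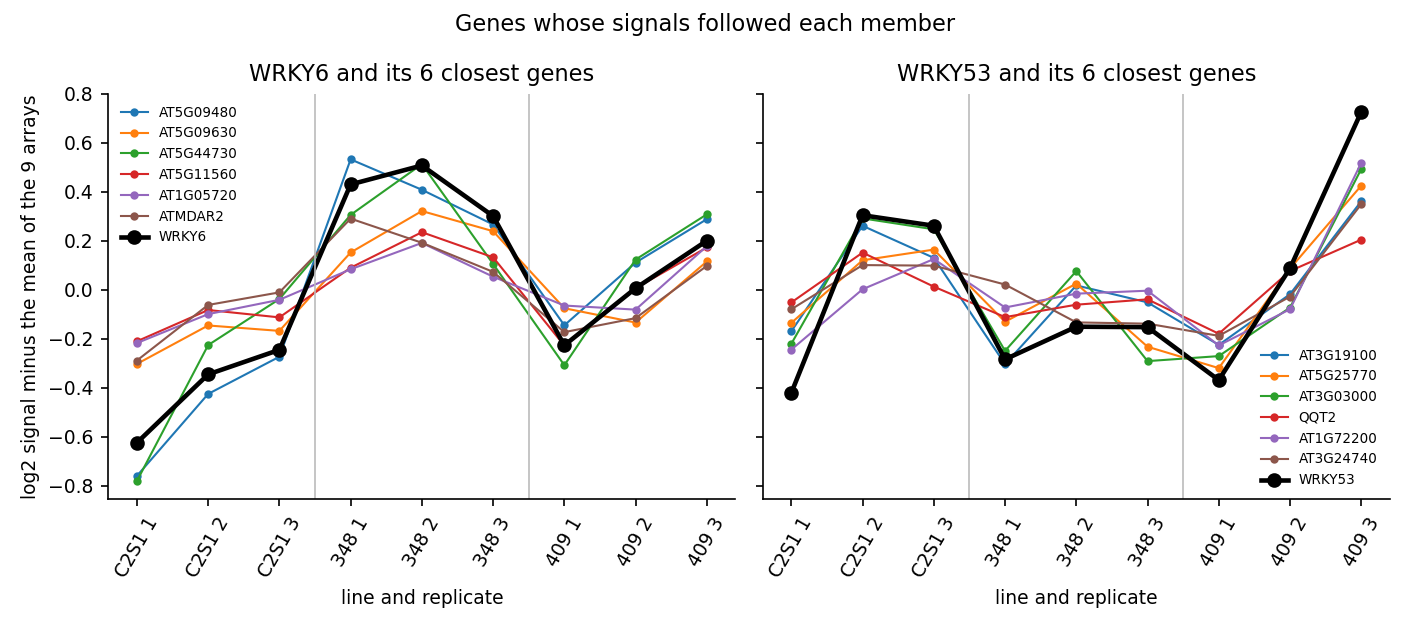
Signals of WRKY6 and WRKY53 (black) and of the 6 genes closest to each (colours) on the 9 arrays, as log2 signal minus the mean of the 9 arrays, without a pseudocount. The lines only join the points of a gene, since replicates have no order. The WRKY6 group is lowest in C2S1 and highest in 348, whereas the WRKY53 group is set apart mainly by 409 replicate 3.

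Of the WRKY family, 6 members had a probe set of their own and 5 were tested. None was called in either mutant line. Over all tested probe sets 0.0211% were called in line 348 and 0.0423% in line 409, so none among 5 is no finding about the family. WRKY47, which belongs to the same subgroup of the family as WRKY6, had 85.8, 77.6 and 94.0 units in the control and 64.1, 66.6 and 73.2 in line 348. All arrays of line 348 lay below all control arrays, the opposite direction to WRKY6. In line 409 it had 83.4, 81.9 and 109 units, which overlapped with the control. The log2 change was -0.31 in line 348, SE 0.144, with limma adjusted p = 0.871, and 0.08 in line 409 with limma adjusted p = 0.861. WRKY47 lay below the control without overlap in line 348, as did 7.13% of the tested probe sets.

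WRKY22, a defence and senescence regulator reported as a target of WRKY53, had log2 changes of -0.07 in line 348 and 0.09 in line 409, and its signals of 72.2 to 109 units overlapped between all lines. WRKY20 had 0.01 and 0.07. WRKY42, a close relative of WRKY6 that likewise represses PHO1, stayed dim at 0.596 to 12.7 units on the 9 arrays, below the 40th percentile on each, and was not tested. The median log2 change of the 5 tested members was -0.07 in line 348 and 0.08 in line 409, against -0.009 and -0.012 over all tested probe sets.

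Of the 24 senescence genes listed beside the pair, 3 had a probe set of their own, all tested, and none was called in either line. The share called over all tested probe sets was 0.0211% in line 348 and 0.0423% in line 409. SAG29, which encodes the sugar transporter SWEET15 and is strongly induced in ageing leaves, had 2.83, 22.6 and 7.87 units in the control. It had 24.6, 27.5 and 47.3 in line 348 and 26.0, 13.9 and 30.7 in line 409. Line 348 lay above the control without overlap, as for 6.06% of the tested probe sets, with a log2 change of 1.39, SE 0.404 and limma adjusted p = 0.589, and line 409 overlapped with it, with 0.97 and limma adjusted p = 0.35. SAG29 was above the 40th percentile on 6 of the 9 arrays and on 1 control array, so its fold is poorly fixed at the low end.

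The other senescence genes had small differences from the control. SAG101, a lipase-like partner of defence signalling that is also reported as a target of WRKY53, had 37.3 to 53.8 units over the 9 arrays and log2 changes of 0.10 and -0.01 in lines 348 and 409. EIN3, a transcription factor of the ethylene response, which promotes senescence, had -0.13 and -0.02, and its arrays of line 348, at 277 to 312 units, lay just below those of the control, at 314 to 325, a separation found for 7.13% of the tested probe sets. Over the 3 genes the median log2 change was 0.10 in line 348 and -0.01 in line 409. Of the 12 reported targets of WRKY53, 3 had a probe set of their own, and WRKY22 and SAG101 were tested. Of the 5 reported targets of WRKY6, WRKY42 alone had one, and it was not tested. None of the 11 listed regulators of WRKY53 and none of the 10 phosphate genes, PHO1 included, had a probe set of its own in the gene table.

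Defence and touch genes, which share inducers with both WRKY genes, were read in the same way, and none was called. Calls were as rare over all tested probe sets, 0.0211% in line 348 and 0.0423% in line 409. Of the 18 defence genes listed, BIK1 and PDF1.2 were tested. BIK1, a kinase of immune receptors, had log2 changes of 0.20 in line 348 and 0.21 in line 409. The jasmonate-induced defensin PDF1.2 had 0.01 and 0.58, with limma adjusted p = 0.387 for the latter. It read 12.9, 18.7 and 20.2 units in the control and 23.2, 30.1 and 30.9 in line 409. PDF1.2 exceeded the 40th percentile on 4 of the 9 arrays, every array of line 409, line 348 replicate 1 and no control array. It thus passed the filter through line 409, where it was high, so its 0.58 is a description of a dim signal. Of the 23 touch and stress genes, CML38 and STZ were tested. CML38, a calmodulin-like calcium sensor induced by touch and wounding, had 46.4, 35.2 and 126 units in the control, 152, 85.8 and 128 in line 348 and 199, 180.2 and 105.5 in line 409. Both mutant lines overlapped with the control through its replicate 3, with log2 changes of 0.94 and 1.32, SE 0.347 and limma adjusted p = 0.801 and 0.175. STZ, a zinc finger repressor of stress genes, had -0.01 and 0.12. Over the 9 arrays the correlation with WRKY53 was r = 0.85 for STZ, 0.53 for PDF1.2, -0.04 for BIK1 and -0.13 for CML38, so these genes did not follow it as a group.

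**Figure D5:**
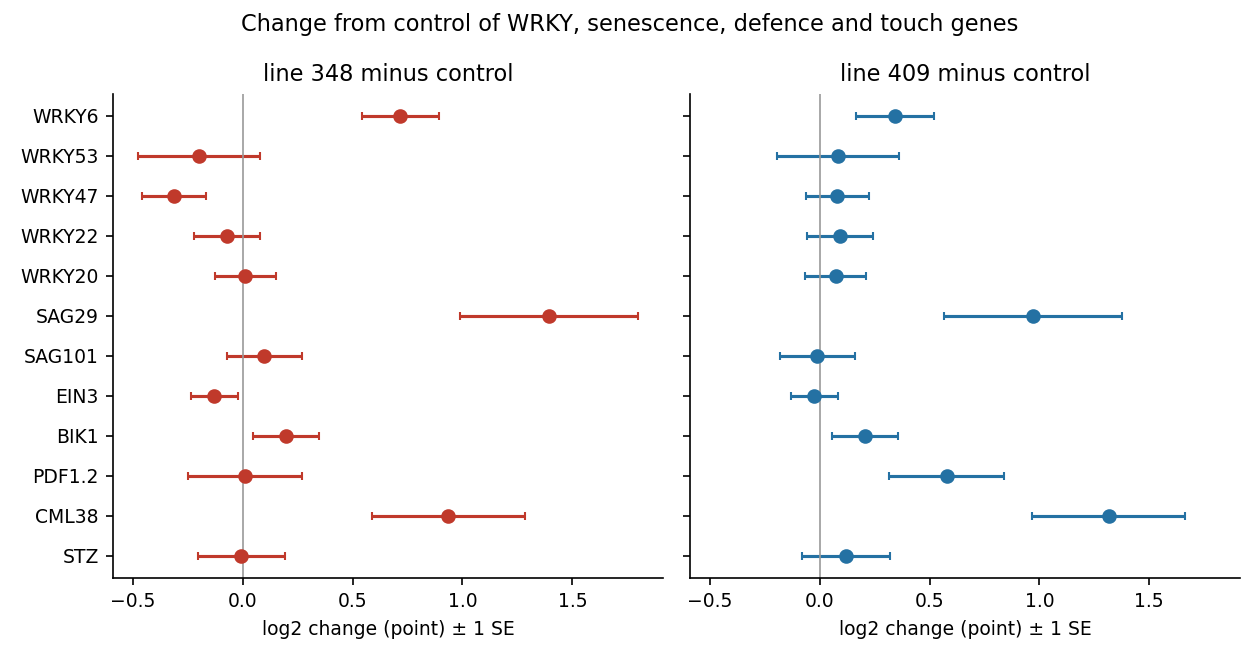
Log2 change from the control (points) ± 1 SE (bars) of WRKY6, WRKY53 and 10 other genes of the WRKY, senescence, defence and touch groups in line 348 and line 409. SAG29, CML38 and WRKY6 lie farthest to the right in line 348, at 1.39, 0.94 and 0.72, and WRKY47 farthest to the left at -0.31. None of the 12 was called, where 0.0211% of all tested probe sets were called in line 348 and 0.0423% in line 409.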

How the data were processed

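The deposited values were intensity units on a linear scale. The submitters' processing notes name MAS5 and GCOS, without versions, as what the authors used. The authors' global scaling was kept, and the 64 Affymetrix control probe sets were dropped. Genes came from the platform's table of probe genes, with RefSeq names of assembly TAIR10.1. That table names a single gene for 13513 of the 22746 probe sets, several for 503 and none for 8730.

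For testing, 4.98 units (the arrays' median 20th percentile) were added to each signal before log2. Probe sets that exceeded the 40th percentile of an array on 3 or more of the 9 arrays were tested, 14199 in all, and both members passed. One limma model (limma 3.58.1, R 4.3.3) held the 9 arrays, with an intensity trend. A call needed an adjusted p under 0.05, by Benjamini-Hochberg over every probe set tested. Permutation tests were exact and two-sided (Python 3.11.15, scipy 1.17.1).

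The members and gene lists were chosen with earlier results of these data known. The rule named every tested WRKY gene; for each member the 6 genes of highest r, the 4 of lowest r and the 4 of highest r after removal of line means; and up to 4 tested genes of each list, the brightest if more. On simulated arrays for line 348 against the control with 14199 probe sets, 79.2% of log2 changes of 1 and 99.2% of changes of 2 were recovered, with a mean of 9 false calls. Both exceed the 0.72 of WRKY6 in line 348, so these rates do not tell how often changes of the members' size would be called.

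The replicate numbers of the titles, which read 1, 1 and 3 for line 348, were checked as pairs. Deviations of control and line 409 arrays of one number correlated at 0.19, -0.04 and 0.10 over the tested probe sets. Those of control and line 348 arrays of one number correlated at 0.05, -0.02 and 0.03. The numbers were not taken to pair the samples in the main model. Arrays of different numbers were not compared, so these values cannot decide whether the samples are paired. Replicates are numbered here by sample order. No 2 arrays of one line held identical values, and arrays of different lines were not compared in this way. Alternatives were other normalizations, pseudocounts, filters, variance models and sets of arrays, each array left out, and a replicate block.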

Additional observations from a re-analysis of the deposited data

How the results depend on the processing

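No alternative brought WRKY6 or WRKY53 past the threshold in any comparison. For WRKY6 in line 348 the log2 change was 0.51 to 0.82 over 10 alternatives, with limma adjusted p from 0.121 with array weights to 0.696 without a filter, and 0.63 to 0.79 with 1 array left out, with limma adjusted p from 0.286 without control replicate 3 to 0.997 without control replicate 1. For WRKY6 in line 409 it was 0.24 to 0.40 and 0.25 to 0.44. For WRKY53 it was -0.24 to -0.09 in line 348, and -0.38 to -0.10 with 1 array left out, and in line 409 it was 0.03 to 0.10 over the alternatives and -0.15 to 0.29 with 1 array left out, negative without control replicate 1 (-0.10) or line 409 replicate 3 (-0.15). WRKY53 could not be tested without control replicate 2, control replicate 3 or line 409 replicate 3, nor could either gene with a filter at the 60th percentile, because they then failed the filter; for those 3 arrays the WRKY53 values are differences of mean log2 values with no test, an alternative chosen after seeing the data.

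The number of probe sets called in line 348 was 3, and it was 0 among probe sets with 1 gene, where 401 had an unadjusted p under 0.05 in limma, 1 without the intensity trend, 10 with array weights, 6 with only the arrays compared, 1 with the replicate block and 1 to 24 with 1 array left out, 24 without control replicate 3. In line 409 it was 6, 40 with array weights and 3 to 60 with 1 array left out, 60 without control replicate 3. Between the lines it was 2, 1 without a filter, among probe sets with 1 gene or without the trend, and 1 to 6 with 1 array left out. With the replicate block, WRKY6 in line 348 had 0.76 with limma adjusted p = 0.492, and the block changed no call of either member.

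Of the 10 probe sets most like WRKY6, 5 were kept with Spearman correlation, 1 with deviations from the line means and 3 to 7 with 1 array left out, fewest without line 348 replicate 2. Of the 10 most like WRKY53, 3, 1 and 1 to 7 were kept, fewest without line 409 replicate 3. The correlation of the pair was -0.12 after quantile normalization, -0.02 (-0.0228) after median centring and -0.26 to 0.20 with 1 array left out, negative without control replicate 1 (-0.26), line 409 replicate 1 (-0.03) or line 409 replicate 3 (-0.13). The cause of these shifts was not tested. WRKY53 lies near the dim end of the arrays, which limits what its signal can show.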
